A study of Mus musculus with 15 samples.

Results

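Ly6 family transcripts were followed in WEHI-164 tumors, a mouse fibrosarcoma line, from before poly(I:C) injection to day 7. The 8 genes considered were Ly6a, Ly6c1, Ly6c2, Ly6d, Ly6e, Ly6g, Ly6i and Ly6k, chosen by name as members of the family, and all 8 were among the 32544 entries of the deposited count table. The series held 15 wild-type tumors grown under the skin of female BALB/c mice, 3 for each of 5 harvest days. Tumors of day 0 received nothing and served as the control group, while tumors of day 1, 3, 5 and 7 were injected daily with poly(I:C), a synthetic RNA duplex sensed by Toll-like receptor 3 (TLR3). The labels give 1 µg in 25 µL for a planned 6 doses, but the study's supplement describes the time course with a higher dose per day, and which was used here is not settled. The paper counts harvest days from the first dose and gives dosing for up to 6 days. Tumors of day 7 were thus past the last planned dose, so that end of dosing and harvest day cannot be told apart. No vehicle-injected tumor was among these samples, and no untreated tumor of a later day. Injection, drug and time of tumor growth therefore cannot be told apart in any comparison with day 0. The labels give no age for the mice. Whole tumors were sequenced, in which fewer cells of a type and less RNA per cell cannot be told apart.

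Ly6 proteins are small, cysteine-rich molecules of the Ly6/uPAR family that fold into finger-like loops and are mostly held at the cell surface by a lipid (GPI) anchor. They are used widely to sort mouse cells: Sca-1, the product of Ly6a, marks stem and progenitor cells and activated T cells, Ly6C marks inflammatory monocytes as well as endothelium and some T cells, and Ly6G marks neutrophils. Several members, Ly6a, Ly6c and Ly6e among them, are known to be induced by interferons, the cytokines released when cells sense double-stranded RNA.

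Total estimated counts lay between 23.7 and 31.9 mega-counts per tumor. Values are given as CPM, in which counts are divided by library size after TMM normalisation, which corrects for a few abundant genes taking up a library. A count of 3, the most that an observed 0 allows, was worth 0.094 to 0.127 CPM, for counting error only. Vim, the vimentin gene of fibroblasts and other mesenchymal cells, averaged 4446 CPM and was detected in every tumor, as the fibrosarcoma label would have it. The libraries of 2 tumors bear on what follows. Day 3 replicate 1 stood apart from the other 14 tumors across all genes, with a score of 144.4 on the first principal component against -77 to 45.1, and with 3572 CPM summed over 10 skeletal muscle genes against 5.12 to 210.0 elsewhere. Day 1 replicate 3 held the highest counts of Ly6a, Ly6c1, Ly6c2 and Ly6e of all tumors.

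All 8 genes lie on mouse chromosome 15 (GENCODE release M21 on GRCm38) within 397.1 kb. From the lower coordinate upward they are Ly6d (74762056 to 74763620), Ly6k (74796874 to 74799986), Ly6e (74955051 to 74959905), Ly6i (74979534 to 74983430), Ly6a (74994877 to 74998031), Ly6c1 (75044018 to 75048830), Ly6c2 (75108158 to 75111970) and Ly6g (75155240 to 75159126). Ly6e and Ly6g are on the plus strand and the other 6 on the minus strand. Ly6e, Ly6i, Ly6a, Ly6c1 and Ly6c2, the 5 members with enough counts to be tested, are consecutive among the 8 and span 156.9 kb. Ly6d, Ly6k and Ly6g, at the outer ends, were close to 0 in most tumors.

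How alike these genes are decides how well reads can be assigned to them. The coding sequences of Ly6c1 and Ly6c2, which encode the 2 forms of the Ly6C antigen, are shown because a read may match both. Each is 396 bases long in GENCODE, from transcripts ENSMUST00000065408.15 and ENSMUST00000100542.9. Bases 1 to 300 are printed, and capitals mark the 7 positions there, of 9 in all, at which they differ.

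Ly6c1: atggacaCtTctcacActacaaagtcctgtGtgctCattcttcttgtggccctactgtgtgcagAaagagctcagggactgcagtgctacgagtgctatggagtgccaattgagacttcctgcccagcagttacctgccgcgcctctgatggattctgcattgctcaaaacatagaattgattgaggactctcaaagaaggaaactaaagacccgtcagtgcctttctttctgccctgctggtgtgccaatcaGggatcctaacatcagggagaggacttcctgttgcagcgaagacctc

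Ly6c2: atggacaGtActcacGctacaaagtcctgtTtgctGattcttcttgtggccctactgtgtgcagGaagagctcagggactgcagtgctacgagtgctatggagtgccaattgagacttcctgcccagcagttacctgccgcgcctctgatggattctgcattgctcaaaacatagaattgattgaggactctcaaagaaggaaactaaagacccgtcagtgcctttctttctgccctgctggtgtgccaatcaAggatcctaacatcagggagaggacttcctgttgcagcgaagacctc

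Identity over the coding sequence was 97.73%, and the longest identical run was 188 bases, which is longer than the 100-base reads. Nevertheless, 84.7% of all 100-base windows of the Ly6c1 transcript and 84.23% of those of Ly6c2 held at least 1 word of 31 bases found in no other gene, the word length that kallisto matches by default. Ly6a was closest to Ly6i, at 86.42%, and shared 83.21% with Ly6g and 81.98% with Ly6c1. Ly6e, Ly6d and Ly6k were identical to any other member at 53% of aligned positions or fewer. Words of 31 bases shared with another gene made up 46.76% of those of Ly6c1, 31.93% of Ly6a, 23.69% of Ly6c2, 19.2% of Ly6i, 9.55% of Ly6g and 0.42% of Ly6e, and none of those of Ly6d or Ly6k. For each of the other 6 genes, 100.0% of the 100-base windows held such a word found in no other gene, so that the split of reads is least certain between Ly6c1 and Ly6c2. The tumors are BALB/c while the reference is C57BL/6, and the part of strain differences in these counts was not tested.

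**Figure D1:**
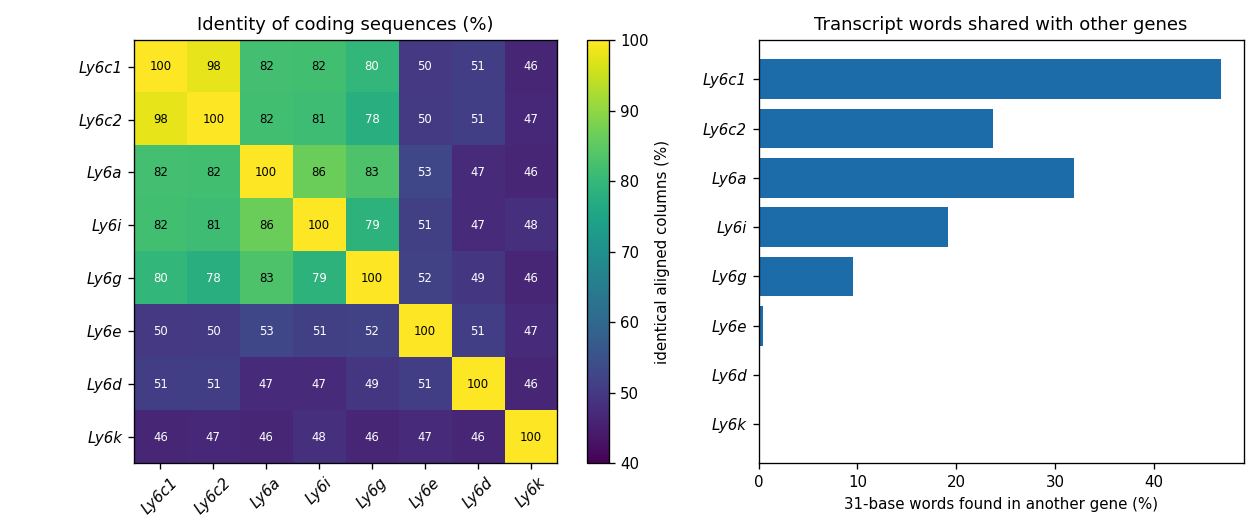
Left, identity of coding sequences between each pair of the 8 genes, as the percent of aligned columns that are identical; right, percent of the 31-base words of all transcripts of a gene that also occur in another gene. Ly6c1 and Ly6c2 form the closest pair at 97.73%, while Ly6e, Ly6d and Ly6k share almost no words with other genes.

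Ly6e encodes an interferon-inducible surface protein that affects the entry of viruses and, in the mouse placenta, acts as the receptor of syncytin-A. It carried the most counts of the 8 genes. The untreated tumors had 312.0, 473.3 and 421.4 CPM. On day 1, 625.5, 660.6 and 1704 CPM were measured, and on day 3, 1291, 1283 and 990.9 CPM. All 6 tumors of these days were above every untreated tumor. Tumors of day 5 had 778.5, 775.4 and 483.8 CPM, the lowest of which was only just above the highest untreated tumor. On day 7 the values were 380.2, 565.1 and 378.9 CPM, which overlapped those of day 0. The means were thus 402 ± 82.3 CPM without treatment, 997 ± 613 at day 1, 1188 ± 171 at day 3, 679 ± 169 at day 5 and 441 ± 107 at day 7 (SD, n = 3). The means of days 1 and 3 differed by less than the spread of day 1.

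Ly6a encodes Sca-1. It was measured at 196.4, 337.0 and 264.6 CPM in untreated tumors. Values of 357.1, 554.7 and 1334 CPM were found on day 1, followed by 666.8, 933.6 and 583.0 CPM on day 3. As for Ly6e, all 6 tumors were above every untreated tumor, although day 1 replicate 1 was so by a small margin. On day 5, replicates 1 and 2 had 595.1 and 494.7 CPM while replicate 3, at 287.0 CPM, lay within the untreated range. The values of day 7, 233.7, 336.9 and 181.9 CPM, overlapped those of day 0. Means were 266 ± 70.3, 749 ± 517, 728 ± 183, 459 ± 157 and 251 ± 78.9 CPM on day 0, 1, 3, 5 and 7 (SD, n = 3).

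Ly6c1 is the Ly6C gene that endothelial cells are known to express, and its profile lay closest to that of Ly6a. Untreated tumors had 89.35, 137.4 and 119.1 CPM. Day 1 gave 156.8, 231.1 and 556.2 CPM and day 3 gave 308.1, 386.8 and 231.8 CPM, again with no overlap with day 0. Of the later tumors, those of day 5 had 231.3, 176.9 and 114.7 CPM and those of day 7 had 94.60, 124.4 and 79.99 CPM. Day 5 replicate 3 and all tumors of day 7 were within or below the untreated range. For every 100 counts of Ly6a there were between 35.76 and 46.21 counts of Ly6c1 in each of the 15 tumors. The CPM of each gene, in contrast, differed several-fold between tumors. This ratio was lower in all tumors of day 5 (35.76 to 39.95) than in those of day 0 (40.77 to 45.5).

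Ly6c2 is the Ly6C gene known from inflammatory monocytes and memory T cells. It was measured at 11.36, 19.02 and 15.13 CPM without treatment, at 22.38, 32.06 and 123.2 CPM on day 1 and at 100.1, 92.66 and 37.99 CPM on day 3. None of these treated tumors overlapped day 0, but within each day they differed by more than 2-fold, with day 1 replicate 3 highest on day 1 and day 3 replicate 3 lowest on day 3. On day 5 the values were 43.76, 38.16 and 15.84 CPM and on day 7 they were 12.65, 21.78 and 10.70 CPM, and both days overlapped day 0. Mean levels were 15.2 ± 3.83 CPM without treatment, 59.2 ± 55.6 at day 1, 76.9 ± 33.9 at day 3, 32.6 ± 14.8 at day 5 and 15.04 ± 5.92 at day 7 (SD, n = 3).

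Ly6i encodes a less studied member found on monocytes and macrophages. It had 2.39, 5.47 and 4.36 CPM in untreated tumors. On day 1, replicates 1 and 2 stayed in that range at 2.47 and 4.55 CPM, and only replicate 3, at 20.2 CPM, was above it. On day 3 the values were 24.9, 17.2 and 8.21 CPM, all above the untreated tumors. The tumors of day 5 were spread from 2.41 through 6.37 to 20.1 CPM, and those of day 7 had 1.38, 4.75 and 1.25 CPM. Ly6i was thus the member whose day 1 tumors overlapped the control group, and the one with the widest spread relative to its level.

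**Figure D2:**
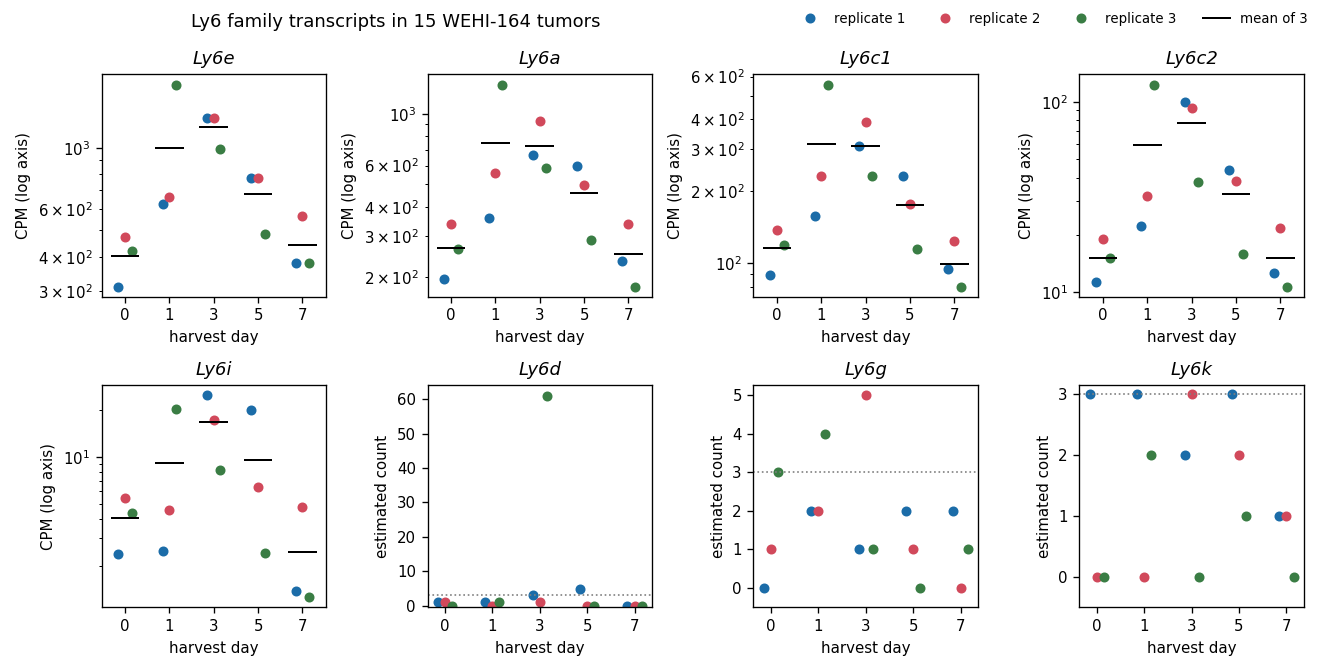
Each dot is 1 tumor, coloured by replicate number, over the 5 harvest days. Ly6e, Ly6a, Ly6c1, Ly6c2 and Ly6i are in CPM on log axes with bars at the mean of 3 tumors, and Ly6d, Ly6g and Ly6k are in deposited counts with a dotted line at 3 counts. Ly6e, Ly6a, Ly6c1 and Ly6c2 lie above day 0 in all tumors of days 1 and 3, and the 3 low genes are at 5 counts or fewer except for Ly6d in day 3 replicate 3.

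The other 3 members were at the edge of detection and did not pass the filter on low counts, so they were not tested. Ly6g, the neutrophil antigen, was at 0 to 5 counts in each of the 15 tumors. The 12 neutrophil markers summed to 61.9 to 101.6 CPM on day 0, 45.7 to 162.9 on day 1 and 98.6 to 239.8 on day 3. On days 5 and 7 the sums were 43.9 to 205.5 and 27.5 to 86.2 CPM. Csf3r, the receptor of granulocyte colony-stimulating factor, held the most with a mean of 46.5 CPM. In day 3 replicate 1, Csf3r had 173.6 and the protease gene Mmp9 42.7 of the 239.8 CPM. In day 0 replicate 1, Mmp9 had 71.6 of the 101.6 CPM. No neutrophil marker was at 0 in all tumors, while S100a8, an abundant neutrophil transcript, had 19 to 259 counts and Ngp, a granule protein gene, 2 or fewer. Camp had 6 counts or fewer and Elane 1 or fewer. Of the rest of the list, S100a9 had 21 to 515 counts, Cxcr2 74 to 351 and Mmp8 13 to 166. Ltf had 0 to 38 counts, Mpo 2 to 13 and Retnlg 0 to 44. Ly6k, which is known from the testis, was at 0 to 3 counts. Ly6d, known from early B-lineage progenitors and from keratinocytes, was at 0 to 5 counts in 14 tumors and at 61 counts, or 2.37 CPM, in day 3 replicate 3. The same tumor held 470 counts of Krt14, 106 of Krt5 and 85 of Perp, against at most 6, 1 and 8 in the other 14. Of the 12 keratinocyte markers, 6 were above every other tumor there and 6, with Krt10, Dsp and Trp63 among them, were within the range of the others. The first 6 include Krt1, at 1 count against 0, which cannot be told from 0. Krt5 and Krt14 encode keratins of the basal skin layer and Perp a protein of their desmosomes. Summed over 12 keratinocyte markers, that tumor had 47.75 CPM, against 9.01 to 38.3 CPM in the others, and the part of such cells in the Ly6d count was not tested. Another family member, Lypd3, was at 40 counts in this tumor and at 1 or 0 elsewhere.

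Each treated day was compared with untreated tumors to find genes that differed in the course of treatment. Fits were made with the edgeR quasi-likelihood test on all 15 tumors, with adjustment over the 15494 genes tested, and no gene passed an adjusted p of 0.05 on any day (0.0% of genes for each comparison). At an unadjusted p under 0.05 there were 489 genes at day 1, 4654 at day 3, 744 at day 5 and 320 at day 7. DESeq2, with almost the same fold changes, called 40, 2003, 11 and 5 genes. All 5 members tested are therefore described by their differences, and no change of theirs passed the main test.

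On day 3, all 5 members were higher than in untreated tumors, by 2.68-fold to 5.07-fold. The log2 differences were 2.34 (SE 0.63) for Ly6c2, 2.04 (SE 0.89) for Ly6i, 1.56 (SE 0.36) for Ly6e, 1.45 (SE 0.44) for Ly6a and 1.42 (SE 0.41) for Ly6c1. The standard errors are wide enough that this order among members is uncertain, and differences between members were not tested. The edgeR adjusted p was 0.115 for Ly6a, Ly6c1, Ly6c2 and Ly6e and 0.153 for Ly6i. Unadjusted, all 5 were under 0.05, from 0.000841 for Ly6e to 0.0391 for Ly6i, where 18.3% of all genes tested were higher at that threshold. With DESeq2, Ly6e (adjusted p 0.00441), Ly6c2 (0.00802), Ly6c1 (0.0163) and Ly6a (0.0187) passed and Ly6i (0.0665) did not, against 9.43% of genes called higher. In all 5 the tumors of day 3 were above those of day 0 without overlap, as in 19.4% of all genes. The members' differences stood between the 90.2 and 97.1 percentile of all genes tested, so that many other genes differed as much on that day.

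Without day 3 replicate 1, DESeq2 called 0.553% of genes on day 3, counting both directions. Ly6e, with an adjusted p of 0.0305, was the only one of the 5 members among them. The sizes changed less than the calls did. In that case the log2 differences by edgeR were 1.52 for Ly6a, 1.43 for Ly6c1, 2.11 for Ly6c2, 1.50 for Ly6e and 1.65 for Ly6i. Without day 1 replicate 3, in contrast, Ly6e passed the edgeR test on day 3 with an adjusted p of 0.0277, where 0.395% of genes were called. All 5 members then passed with DESeq2, where 17.8% of genes were called. Both shares count genes of either direction.

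On day 1 the differences were 1.97 (SE 0.62) for Ly6c2, 1.49 (SE 0.44) for Ly6a, 1.45 (SE 0.41) for Ly6c1, 1.31 (SE 0.36) for Ly6e and 1.16 (SE 0.87) for Ly6i on the log2 scale. The edgeR adjusted p was 0.926 for Ly6c1 and Ly6e, 0.986 for Ly6a and 1 for Ly6c2 and Ly6i. Unadjusted, 4 of 5 members were under 0.05 and higher, between 0.00297 and 0.00751, against 2.18% of all genes, with Ly6i at 0.206. The same 4 were above day 0 without overlap, against 5.76% of all genes. DESeq2 called none of the 5 (0.24% of all genes called higher), with the lowest adjusted p, 0.0767, for Ly6e. Without day 3 replicate 1, DESeq2 called 0.481% of genes on day 1 in either direction, Ly6e among them with an adjusted p of 0.0346. All 5 differences were at or above the 98.7 percentile of the genes tested.

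Much of the size on day 1 rested on 1 tumor. Without day 1 replicate 3 the log2 differences were 0.78 for Ly6a, 0.75 for Ly6c1, 0.85 for Ly6c2 and 0.68 for Ly6e, and that of Ly6i turned to -0.21. No such reversal occurred on day 3. Over all 15 tumors left out in turn, the day 3 difference ran from 1.24 to 1.66 for Ly6a, 1.23 to 1.59 for Ly6c1, 2.11 to 2.67 for Ly6c2, 1.41 to 1.70 for Ly6e and 1.65 to 2.37 for Ly6i. Leaving out day 3 replicate 1 gave the lowest value for Ly6c2 and for Ly6i.

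**Figure D3:**
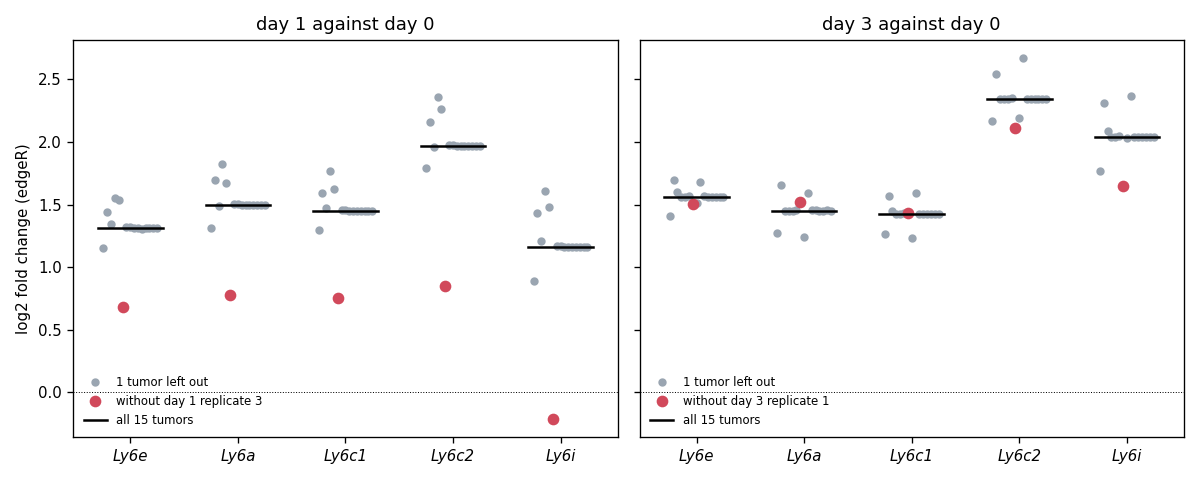
Log2 fold change from day 0 by edgeR for 5 members on day 1 (left) and day 3 (right), with all 15 tumors (bar) and with each tumor left out in turn (dots). On day 1 every member is at 0.85 or less without day 1 replicate 3 (red), while on day 3 the values stay between 1.23 and 2.67.

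By day 5 the log2 differences were smaller, from 0.60 for Ly6c1 to 1.24 for Ly6i, with an edgeR adjusted p of 0.859 for each member. That of Ly6i rested on day 5 replicate 1, without which it was 0.11, the smallest of the 5. Unadjusted values ran from 0.0523 for Ly6e to 0.179 for Ly6i, so that 0 of 5 were under 0.05. At that threshold 1.41% of genes were higher. Ly6e was the only member above day 0 without overlap, against 6.89% of all genes. DESeq2 called no member (0.0202% of genes called higher). On day 7 the differences were -0.08 for Ly6a, -0.21 for Ly6c1, -0.01 for Ly6c2, 0.13 for Ly6e and -0.72 for Ly6i, with standard errors from 0.35 to 0.88. In the upward direction no member was under an unadjusted p of 0.05 (1.05% of genes) or free of overlap (5.03% of genes). DESeq2 called none (0.0195% of genes called higher). These errors leave room for a difference of either sign on day 7, and that of Ly6i was -1.62 without day 7 replicate 2.

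**Figure D4:**
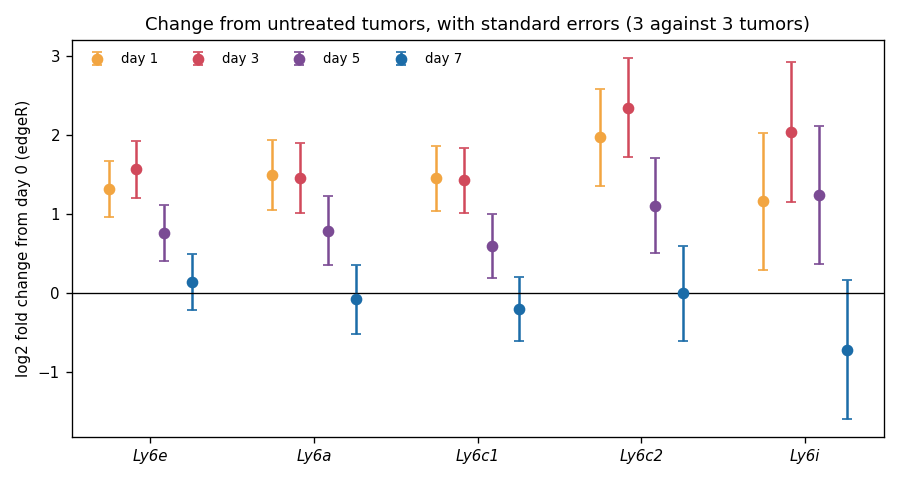
Log2 fold change from the 3 untreated tumors for 5 members on days 1, 3, 5 and 7, by edgeR, with bars of 1 standard error (3 tumors against 3). Values of day 5 lie below those of day 3 for every gene, and those of day 7 lie within 1 standard error of 0.

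Day 7 was also compared with day 3 directly, which does not use the level of the untreated tumors. Dosing was planned to continue past day 3 but to have ended before day 7, and the part of this was not tested. All 5 members were lower on day 7, by 2.69-fold for Ly6e to 6.77-fold for Ly6i, and no tumor of day 7 overlapped with day 3 for any of them, as in 18.4% of all genes. The log2 differences were -1.43 (SE 0.36) for Ly6e, -1.54 (SE 0.44) for Ly6a, -1.63 (SE 0.41) for Ly6c1, -2.35 (SE 0.63) for Ly6c2 and -2.76 (SE 0.92) for Ly6i. Here the edgeR adjusted p was 0.0832 for Ly6e, Ly6a, Ly6c1 and Ly6c2 and 0.0848 for Ly6i, while unadjusted values lay between 0.00162 and 0.0103 (22.6% of genes were lower at an unadjusted p under 0.05). DESeq2 called all 5, with adjusted p from 0.00749 to 0.0144, against 15.4% of genes called lower. Without day 3 replicate 1, DESeq2 gave an adjusted p to only 5837 genes. It called 1.59% of these in either direction, a share not comparable with the others here. Only Ly6e of the 3 members that were given an adjusted p was then called, at 0.0377. Leaving out other tumors changed edgeR's calls in the opposite direction. Without day 3 replicate 3, Ly6a, Ly6c1, Ly6c2 and Ly6e passed, each with an adjusted p of 0.0493. In that fit 13.6% of all genes were called in either direction. Without day 1 replicate 3, Ly6c1 (0.0432) and Ly6e (0.0362) passed, where 0.375% of genes were called in either direction. The difference of Ly6i was -3.66 without day 7 replicate 2, and the others ran from -2.72 for Ly6c2 to -1.31 for Ly6a over all tumors left out in turn. In a joint edgeR test of the 4 treated days, adjusted p was 0.292 for 4 members and 0.321 for Ly6i, with 0 of 15494 genes called and 2509 at an unadjusted p under 0.05.

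The share of Ly6C counts assigned to each of the 2 genes differed between tumors. The split of reads is least certain between these 2 genes, and its part in the shares was not tested. Of the counts assigned to either, Ly6c2 took 11.28%, 12.16% and 11.27% in untreated tumors. It took 12.49%, 12.18% and 18.14% on day 1 and 24.53%, 19.33% and 14.08% on day 3. All 6 of these tumors were above the untreated ones, although 2 of day 1 exceeded them by less than 1 percentage point. Of these, day 1 replicate 2, at 12.18%, was practically level with the highest untreated tumor, at 12.16%. On day 5 the shares were 15.91%, 17.74% and 12.14% and on day 7 they were 11.79%, 14.9% and 11.8%, both overlapping with day 0. The mean share was 11.6% ± 0.511 on day 0 and 19.3% ± 5.23 on day 3 (SD, n = 3). This difference gave p = 0.1 in a two-sided exact permutation test chosen after the shares were seen, which is the smallest p that 3 tumors against 3 allow, and 0.2 after adjustment over the 4 treated days. Groups without overlap always give that smallest p, so the test adds nothing to the shares themselves. Day 3 replicate 1, the tumor that stood apart, had the highest share, but the other 2 tumors of day 3 were above day 0 as well. Summing the 2 genes before the fit gave a log2 difference of 1.56 (SE 0.44) on day 3 for Ly6c as a whole.

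**Figure D5:**
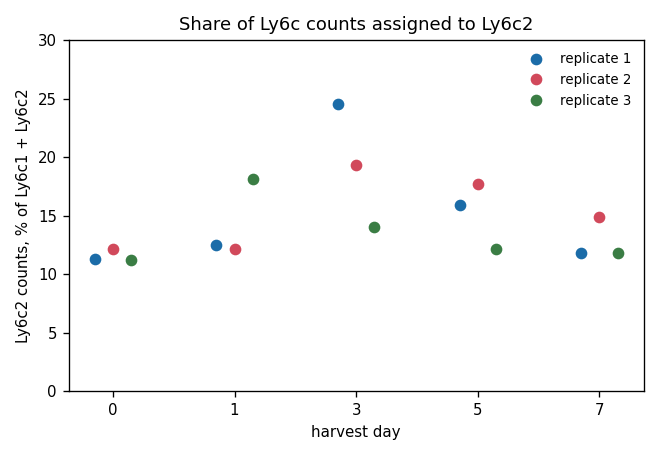
Counts assigned to Ly6c2 as a percent of those assigned to Ly6c1 and Ly6c2 together, 1 dot per tumor by harvest day. Untreated tumors lie between 11.27% and 12.16%, and day 3 spans 14.08% to 24.53%.

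Levels between genes can be compared only per length, and the deposited counts do not give the lengths used. Divided by the mean length of the coding transcripts, the day 0 mean was 376.0 CPM per kb for Ly6e, 339.4 for Ly6a, 185.9 for Ly6c1, 22.78 for Ly6c2 and 4.59 for Ly6i. By the longest transcript instead, Ly6a (278.5 CPM per kb) was above Ly6e (176.4), so the order of these 2 genes depends on the length assumed. That of Ly6c1, Ly6c2 and Ly6i below them was the same with either length on day 0 and on day 3.

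Interferon response genes and markers of cell types were compared with day 0 in the same way. The 30 interferon response genes were all higher on day 1 at an unadjusted p under 0.05 and 28 were on day 3, against 2.18% and 18.3% of all genes tested. Their median log2 difference was 1.51 on day 1 and 1.28 on day 3, against -0.000244 and -0.02 over all genes tested, and was 0.46 on day 5 and 0.03 on day 7. Their summed level was 1934 to 2487 CPM on day 0. Replicates 1, 2 and 3 had 3695, 3910 and 9423 CPM on day 1 and 4608, 6538 and 4498 CPM on day 3. Of the 5 members, the median was 1.45 on day 1 and 1.56 on day 3. No gene of the list passed the edgeR adjusted p.

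Of 12 monocyte genes, 3 were higher on day 1 and 8 on day 3 at an unadjusted p under 0.05, with medians of 0.17 and 1.26. Of all genes tested, 2.18% were higher on day 1 and 18.3% on day 3 at that threshold. Lyz2, which encodes lysozyme, led this list at a mean of 1734 CPM, and the summed level was 1654 to 2233 CPM on day 0, 1458 to 3220 on day 1 and 3150 to 7286 on day 3. Of 12 endothelial genes, led by Pecam1 at a mean of 86.9 CPM, 0 were higher on day 1 and 5 on day 3 at that threshold, with medians of 0.01 and 0.91. Endothelial levels summed to 289.8 to 307.4 CPM on day 0, 245.8 to 421.2 on day 1 and 303.8 to 862.2 on day 3. All 12 T cell genes, led by the kinase gene Lck, were higher on day 3 and none on day 1 at that threshold, with medians of 2.18 and 0.14. Their summed level was 47.0 to 68.5 CPM on day 0, 38.7 to 117.0 on day 1 and 133.6 to 449.2 on day 3. By tumor, day 1 replicates 1, 2 and 3 had T cell sums of 39.8, 38.7 and 117.0 CPM, endothelial sums of 285.6, 245.8 and 421.2 CPM and monocyte sums of 1458, 2067 and 3220 CPM. In day 3 replicate 1 the monocyte (7286 CPM), T cell (449.2 CPM) and endothelial (862.2 CPM) sums were all the highest of the 15 tumors. Other lists are set beside the same 18.3% of all genes higher on day 3 at an unadjusted p under 0.05. Higher there were 1 of 8 neutrophil genes tested, 4 of 7 B and plasma cell genes (led by Xbp1) and 1 of 10 skeletal muscle genes (led by Acta1). So were 3 of 10 fibroblast and mesenchymal genes, 0 of 4 epithelial (led by Krt8) and 0 of 3 keratinocyte genes (led by Dsp). At that threshold 2 fibroblast and mesenchymal genes and 1 keratinocyte gene were lower, as were 1819 of the 15494 genes tested. None of the markers in these cell type lists was at 0 in all tumors. The part of each cell type, or of interferon, in the members' levels was not tested beyond these values.

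Across the 15 tumors, each tested member was set beside all other genes tested, by Pearson's r of log2 CPM, which is given as a description since tumors share harvest days. The genes most like Ly6a were Ly6c1 (r = 0.992), Parp11, an ADP-ribosyltransferase (0.987), and Irf9, the DNA-binding subunit of the interferon-activated factor ISGF3 (0.98). For Ly6c1 they were Ly6a, Irf9 (0.983) and Zbp1, a sensor of Z-form nucleic acid (0.978). Ly6c2 was closest to Trim30a (0.987), Uba7, the activating enzyme for ISG15 (0.985), and an entry named PYHIN1 (0.984), and Ly6e to Trim30a (0.989), Phf11a (0.989) and Slfn8 (0.988). Ly6i differed in its neighbours, which were Cd40, the co-stimulatory receptor of antigen-presenting cells (0.98), Mcemp1 (0.976) and Dnajb11, a chaperone of the endoplasmic reticulum (0.973). Among the 5 members r ran from 0.87 between Ly6e and Ly6i to 0.992 between Ly6a and Ly6c1. Ly6a shares 21.92% of its 31-base words with Ly6c1, and the part of this in their r was not tested. Ly6c2 and Ly6e, which share no such word, had r = 0.98.

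Short promoter windows around annotated starts (RefSeq, GRCm38.p6) were matched for Ly6c1, Ly6c2 and Ly6g. Neither GAAANNGAAA, a pattern like the interferon-stimulated response element, nor TTCNNNGAA, a pattern like the gamma-activated site, was found on either strand in their 6 windows, where 3.44% and 8.3% of all 32851 promoters held them. These letters being absent from the windows says nothing of sites outside them.

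Of 36 other genes of the Ly6/uPAR family, 29 were in the table and 10 were tested. Only Cd59a was higher on day 3 at an unadjusted p under 0.05, where 18.3% of all genes tested were. It encodes an inhibitor of the complement membrane attack complex and had a log2 difference of 1.56 (SE 0.52) with an edgeR adjusted p of 0.115. The median of the 10 was 0.36 on day 3, and none was higher at that threshold on day 1. Plaur, the urokinase receptor, had the highest level, with a median of 101.7 CPM over the tumors and a day 3 difference of -0.25 (SE 0.30). Other members with a median of at least 1 CPM were Cd59b (23.0 CPM), a paralog of Cd59a with a day 3 difference of -0.02 (SE 0.21), Lynx1, a modulator of nicotinic receptors (8.46 CPM, 0.70, SE 0.36), and Gpihbp1, which carries lipoprotein lipase in capillaries (5.82 CPM, 0.22, SE 0.39). Ly6g5c and Lypd4 were at 0 in all tumors.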

How the data were processed

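Poly(A) RNA of 15 tumors was sequenced by the authors as 100-base single-end reads. Reads were checked (FastQC 0.11.3) and quantified per transcript (kallisto 0.43.0) on mm10 (GRCm38), then summed to genes with tximport. The authors deposited estimated counts as whole numbers, 1 column per tumor. The transcript set and strandedness are not given in the sources used here. An entry whose name had become a date, at most 0.0268% of a tumor's counts, was left out, and 31401 of 32544 entries matched a mouse symbol. No pair of same-day tumors was as close as counting noise alone would make it (chi-square per degree of freedom 9.47 to 282).

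Genes above the study's minimum CPM in at least 3 tumors were kept, equal to 8.68 to 11.7 counts per tumor, which left 15494. The main test was the two-sided quasi-likelihood F test of edgeR 4.0.16 (R 4.3.3) with TMM factors on all tumors, harvest day being the only term, with Benjamini-Hochberg adjustment over all genes and a threshold of 0.05. The standard error is the log2 fold change over the square root of F. Alternatives were DESeq2 1.42.0, RLE size factors, another or no filter on low counts, a replicate block, only the tumors of the 2 days compared, Ly6c1 and Ly6c2 summed, and each tumor left out in turn. The fits were tested on simulated data with the same spread for every gene and no tumor standing apart. This does not show how they perform on the present tumors. A prior count of 2 was used for log2 CPM. Per the study's legends, the 3 tumors of a day came from 3 mice.

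Text names the 8 members, the 3 tested genes with the highest Pearson's r to each tested member, other family genes with a median of at least 1 CPM, and the gene with the most counts in each list, apart from an item not reported here. Krt1, Krt5, Krt10, Krt14, Trp63, Perp, Lypd3, S100a8, S100a9, Ngp, Mmp8, Mmp9, Camp, Elane, Cxcr2, Ltf, Mpo and Retnlg were named after their values were seen. Members, lists and tests were chosen with earlier results of these data known. Coding sequences and coordinates are from GENCODE M21, counted from 1.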

Additional observations from a re-analysis of the deposited data

How the results depend on the processing

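Among all member values recomputed under an alternative, 551 results stayed on the same side of the threshold with the same direction, 29 passed it where edgeR with all tumors did not, and 13 changed direction, while 2 from DESeq2 had no adjusted p. With edgeR no gene was called in any comparison, whereas DESeq2 called 40 genes at day 1, 2003 at day 3, 11 at day 5 and 5 at day 7 against day 0, and 3260 for day 7 against day 3. DESeq2 without day 3 replicate 1, chosen after the data were seen, called 71, 85, 18, 16 and 93 genes in that order, and without day 1 replicate 3, likewise added, 5, 2677, 31, 13 and 3775. A fit of only the tumors of the 2 days compared called 1 gene on day 5 and 1 on day 7. With each tumor left out in turn, edgeR called 0 to 61 genes on day 3 (61 without day 1 replicate 3, 2 without day 3 replicate 3), 0 to 2104 for day 7 against day 3 (2104 without day 3 replicate 3, with 4 members among them; 58 without day 1 replicate 3, with 2; 1 without day 7 replicate 2), and 0 for each other comparison. The cause of these differences was not tested.

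Changes of direction concerned values near 0, or rested on day 1 replicate 3. Without that tumor the day 1 value of Ly6i was -0.21 with edgeR, the lowest of a range up to 1.61, and -0.22 with DESeq2. Over the tumors left out, the day 7 values against day 0 ran from -0.36 to 0.12 for Ly6a, from -0.38 to 0.19 for Ly6c2 and from -0.084 to 0.27 for Ly6e, and with only the tumors of the 2 days Ly6c2 was at 0.014. With replicate number as a block, edgeR again called 0 genes in each comparison. Same-numbered tumors of different days did not deviate together (r from -0.619 to 0.511 over 30 pairs, 9 of them over 0.1), so the numbers were not taken as pairs. Depth limits Ly6d, Ly6g and Ly6k, which lay within a few counts of 0 in most tumors.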
